A study of Mus musculus with 10 samples.

Results

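The genes described here are the 3 mouse members of the ETO family of corepressors, Cbfa2t2 (also called MTGR1), Cbfa2t3 (also called MTG16 or ETO2) and Runx1t1 (also called ETO or MTG8). Their binding sites for HEB and for SMAD2/3 were followed by chromatin immunoprecipitation and sequencing (ChIP-seq) across 6 lists of enriched regions. Members were the regions for which the authors' lists name 1 of these genes, together with the regions naming no gene on chr2:154200000-154300000 (mm9), the stretch that holds the 5′ end of Cbfa2t2. This gave 67 regions of 78263 in the 6 lists. The genes and the stretch were selected on the measured binding values of these same lists, so those values are a description and carry no test.

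ETO proteins do not bind DNA themselves. They are brought to genes by DNA-binding proteins, among them the E proteins (the basic helix-loop-helix factors TCF3, TCF4 and HEB) and, for CBFA2T2 in pluripotent cells, PRDM14, and they recruit corepressor complexes with histone deacetylases. HEB, the product of Tcf12, recognises the E-box, a short DNA motif. SMAD2 and SMAD3 carry nodal and activin signals from the receptors to DNA.

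All cells were of the mouse embryonic stem cell (ESC) line CGR8, at passage 18-25 and with no genetic change named in the labels, kept on gelatin with serum and LIF and without feeder cells. Untreated ESCs gave the ESC SMAD2/3 and ESC HEB libraries, and ESCs given 10 µM SB431542 for 24 hours gave the ESC+SB HEB library. SB431542 inhibits the type I receptors for TGF-beta, activin and nodal. Endoderm was derived in serum-free medium with 100 ng/ml Activin A from day 2 and taken at day 4, giving the Endoderm SMAD2/3 and Endoderm HEB libraries. For the Endoderm+SB HEB library, 10 µM SB431542 was present over the same 48 hours. The labels' wording leaves room for more than 1 reading of how it was combined with Activin A, and an effect of the inhibitor on HEB cannot be told apart from a difference in the cells formed. SMAD2/3 was not profiled with SB431542, and the identity of the cells rests on the labels because no RNA was measured.

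Each of the 6 groups had 1 ChIP library, so every difference below compares libraries, has no replicate spread and no p-value. The lists held 4111 (ESC SMAD2/3), 17222 (ESC HEB), 16769 (ESC+SB HEB), 11033 (Endoderm SMAD2/3), 18981 (Endoderm HEB) and 10147 (Endoderm+SB HEB) regions, with 933126 to 5051930 ChIP tags (sequence reads) inside them. Binding is given below as the deposited peak height of a region, in the authors' units, whose scaling the labels and headers do not state. The median height was between 34.4 and 40.0 in the 6 lists, and the lowest listed height was 25.0, or 28.0 in ESC+SB HEB. Tag enrichment is the authors' ratio of ChIP tags to input tags in a region. Intervals on tag counts are exact Poisson 95% intervals and cover counting error only.

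The 67 regions were merged by overlap into 25 sites. Cbfa2t2 had 12 sites made of 39 regions, Runx1t1 had 7 made of 18 and Cbfa2t3 had 6 made of 10. Regions naming no gene were counted for Cbfa2t2 only, so these totals are not on the same basis. Regions that name Cbfa2t2 made up 6 of its sites and 14 of its regions. Family regions numbered 9 in ESC SMAD2/3, 21 in ESC HEB, 17 in ESC+SB HEB, 5 in Endoderm SMAD2/3, 12 in Endoderm HEB and 3 in Endoderm+SB HEB. The lists differ in length, and with each limited to its 4111 tallest regions the counts were 9, 11, 7, 2, 6 and 3 in the same order. Background height, the input signal at the same place, was at most 5.97 at any of these regions, against ChIP heights of 25.2 to 2861.

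Cbfa2t2 carried the strongest HEB binding of the family. Its 5′ end lay at position 154262220 of chromosome 2 (mm9), as read from the distances the lists give. Of its 12 sites, 6 lay upstream in regions for which no gene is listed, between 2.76 and 19.5 kb from the 5′ end, and 6 lay inside the gene. RefSeq's table for GRCm38.p6 places the non-coding genes Gm39962 and Gm52564 next to Cbfa2t2 on that side, and the assignment of the upstream sites to Cbfa2t2 rests on distance alone. Widening the stretch by 50 kb on each side added no region, and no list had a region within 1 kb of the Cbfa2t2 5′ end.

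**Figure D1:**
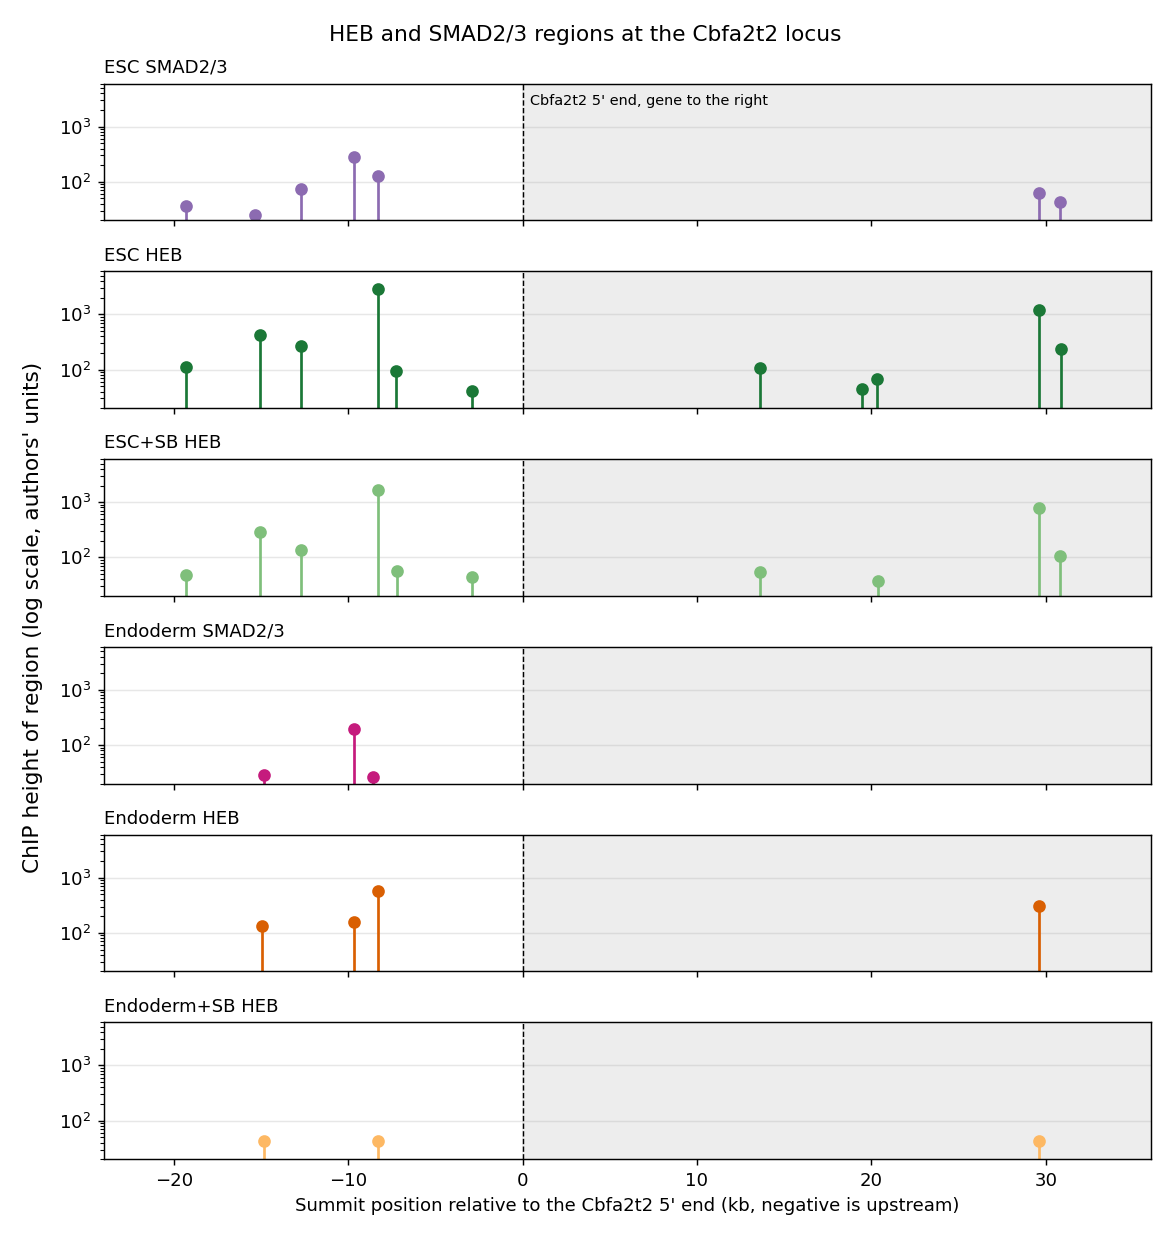
Summits of the regions at Cbfa2t2 in the 6 libraries, with distance from the 5′ end in kb on the x axis and ChIP height in the authors' units on a log y axis; each stem is 1 region and shading marks the side of the gene. ESC HEB shows 6 upstream sites, of which the tallest reaches 2861, and 5 of its 6 sites in the gene; the sixth, 94.02 kb downstream at a height of 27.4, lies outside the plotted range.

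The tallest site lay upstream at chr2:154251723-154254310, with its HEB summit 8.28 kb from the 5′ end. Its HEB height was 2861 in ESC, 1666 in ESC+SB, 571 in Endoderm and 41.9 in Endoderm+SB. It was the tallest of all 17222 ESC HEB regions and the second tallest of the 16769 ESC+SB HEB regions, then ranked 36 in Endoderm and 3321 in Endoderm+SB. The ESC HEB region held 21226 ChIP tags (95% interval 20941 to 21514) against 107 input tags, a tag enrichment of 198, and the ESC+SB HEB region held 12584 (12365 to 12806) against 125. With the inhibitor the ChIP tags were fewer and the input tags were not.

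SMAD2/3 was found at the same site, but with another shape. In ESC, SMAD2/3 had 2 regions there, with heights of 276 at a summit 9.67 kb upstream and 129 at 8.28 kb. Endoderm SMAD2/3 had heights of 194 at 9.69 kb and 26.5 at 8.56 kb. Endoderm HEB also resolved into 2 regions, with the lower height at the far summit (157 at 9.69 kb) and the higher at the near one (571 at 8.28 kb). SMAD2/3 was therefore highest at the far summit in both cell states and HEB at the near summit in all 4 HEB libraries. The ESC HEB and ESC+SB HEB lists each give a single region across both summits, so HEB height at the far summit has no value of its own in these 2 libraries.

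**Figure D2:**
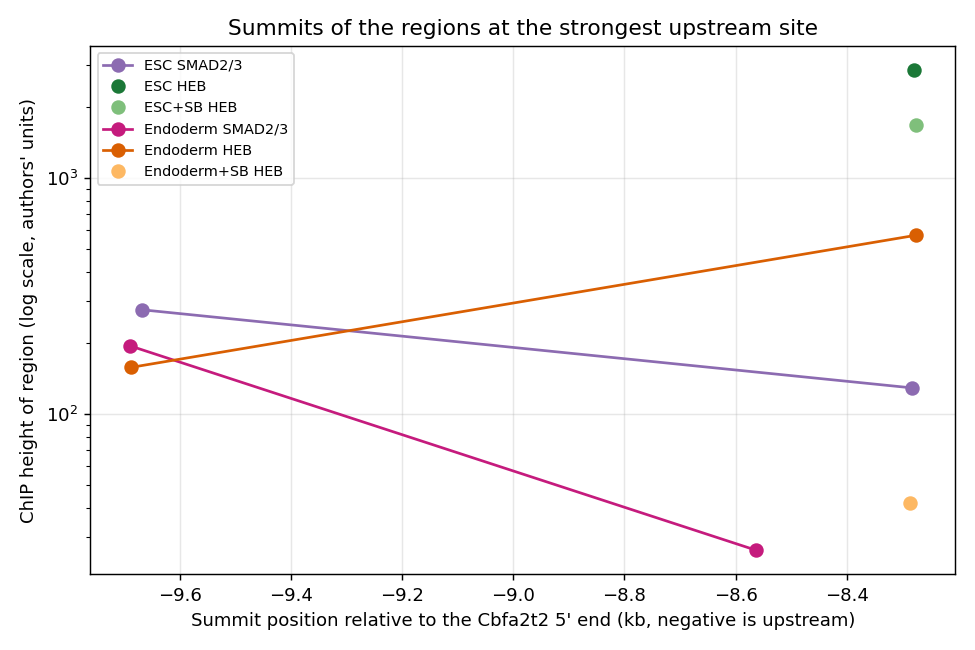
Regions at the strongest Cbfa2t2 site, with the distance of each summit from the 5′ end in kb on the x axis and ChIP height in the authors' units on a log y axis; each point is a region, and a line joins the regions of 1 library. SMAD2/3 is taller at the far summit (276 and 194) than at the near one (129 and 26.5), and Endoderm HEB the reverse (157 and 571).

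At the near point the summits of 5 libraries lay within 12 bp of each other. ESC SMAD2/3, ESC HEB, ESC+SB HEB, Endoderm HEB and Endoderm+SB HEB had summits at 154253937, 154253941, 154253945, 154253945 and 154253933. Endoderm SMAD2/3 differed, with its summit at 154253657. At the far point, Endoderm SMAD2/3 and Endoderm HEB had summits 2 bp apart, at 154252530 and 154252532, and ESC SMAD2/3 was at 154252552.

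A second strong site lay inside Cbfa2t2, 29.59 kb downstream of the 5′ end at chr2:154291601-154292290. HEB height there was 1211 in ESC, 784 in ESC+SB, 305 in Endoderm and 42.0 in Endoderm+SB, and SMAD2/3 height was 63.5 in ESC. Endoderm SMAD2/3 had no listed region at this site. In ESC HEB the region held 4566 tags (4435 to 4700) against 27 input tags, an enrichment of 169 and rank 4 in its list. By the highest tag enrichment among regions that name a gene, Cbfa2t2 was first of 5506 genes in ESC HEB and first of 6828 in ESC+SB HEB, but 61st of 5682 in Endoderm HEB and 1322nd of 5231 in Endoderm+SB HEB.

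The third site with a region in all 4 HEB lists was upstream, at 15.05 kb. Its HEB heights were 427 in ESC, 290 in ESC+SB, 132 in Endoderm and 42.6 in Endoderm+SB, and its SMAD2/3 heights were 25.5 in ESC and 28.7 in Endoderm. Both SMAD2/3 values were close to the lowest listed height. At these 3 sites the order of the HEB libraries was the same, from ESC through ESC+SB and Endoderm to Endoderm+SB, and the Endoderm+SB values fell between 41.9 and 42.6. At the 15.05 kb site the HEB summits were at 154247169 in ESC, 154247166 in ESC+SB, 154247262 in Endoderm and 154247399 in Endoderm+SB. The heights of this site were therefore not all read at 1 point.

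The other 9 sites at Cbfa2t2 appeared in ESC libraries only. Upstream, HEB heights in ESC and ESC+SB were 112 and 47.5 at 19.27 kb, 267 and 137 at 12.72 kb, 93.3 and 57.2 at 7.24 kb, and 41.6 and 43.6 at 2.88 kb. Inside the gene they were 106 and 54.4 at 13.59 kb, 67.7 and 37.8 at 20.35 kb, and 232 and 106 at 30.87 kb. ESC HEB alone had regions at 19.47 kb (44.4) and 94.02 kb (27.4), the latter below the lowest height of the ESC+SB HEB list. ESC SMAD2/3 was listed at 3 of these 9 sites, with heights of 37.2 at 19.28 kb, 72.7 at 12.72 kb and 43.3 at 30.84 kb. A site without a listed region in a library was below that list's threshold and may still carry weaker signal.

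Taken over the whole locus, the 12 ESC HEB regions held 32174 of the 4810688 ChIP tags in that list. This was 0.669% of the tags in 0.0798% of the listed width. The share of list tags was 0.414% in ESC+SB HEB, 0.116% in Endoderm HEB and 0.0241% in Endoderm+SB HEB, and 0.36% and 0.0495% for SMAD2/3 in ESC and Endoderm. The share of listed width was 0.0638% in ESC+SB HEB and 0.0353% in Endoderm HEB, and 0.203% and 0.0385% for SMAD2/3 in ESC and Endoderm. In Endoderm+SB HEB the share of tags was no larger than the share of width (0.0262%).

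Runx1t1, the gene fused to RUNX1 in a form of acute myeloid leukaemia, had HEB regions with heights of 25.2 to 89.6. Its tallest HEB region was higher than 80.0% of the list in ESC, 90.0% in ESC+SB and 81.1% in Endoderm. The lists' distances placed 5′ ends at 13678444 and 13711929 of chromosome 4 (mm9), 33485 bp apart, and a further start within 13669872 to 13671130. Distances here are from 13678444. The broad site over that further start, 7.88 kb upstream, had HEB heights of 64.3 in ESC, 89.6 in ESC+SB and 66.3 in Endoderm, and a SMAD2/3 height of 42.1 in Endoderm. It had no region in ESC SMAD2/3 or Endoderm+SB HEB, and the 3 HEB values lay within a factor of 1.39 of the ESC value. The Endoderm HEB summit lay 577 bp from the ESC one, so its height was not read at the same point.

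A second Runx1t1 site covered the 5′ end at 13678444 (chr4:13677224-13679240). Its HEB heights were 57.2 in ESC, 33.4 in ESC+SB and 72.1 in Endoderm. The HEB summit lay 1.02 kb upstream in ESC, 0.2 kb upstream in ESC+SB and 0.42 kb downstream in Endoderm, distances of 811 and 1431 bp from the ESC summit, so these heights were not read at 1 point. ESC SMAD2/3 had 2 regions there, with heights of 31.5 at 1.01 kb and 37.9 at 0.4 kb upstream, the first of them 2 bp from the ESC HEB summit. Endoderm SMAD2/3 had none.

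Inside Runx1t1, the site at 22.46 kb had HEB heights of 34.1 in ESC and 29.5 in Endoderm and a SMAD2/3 height of 28.0 in Endoderm. The site at 52.68 kb had 62.6 in both ESC and ESC+SB, and that at 55.07 kb had 38.8 and 29.4. Single regions were listed at 24.32 kb in Endoderm HEB (39.0) and at 102.82 kb in ESC HEB (25.2). The inhibitor library of differentiated cells had no Runx1t1 region.

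Cbfa2t3, whose product works with the TAL1 and GATA1 complex in blood cells, was the member with its tallest HEB region in Endoderm, and neither SMAD2/3 list named it. Its 5′ ends lay at 125223009 and 125202075 of chromosome 8 (mm9), on the minus strand and 20934 bp apart. RefSeq's GRCm38.p6 table holds 2 Cbfa2t3 starts with the same distance between them. HEB regions crossed the upstream start in 2 libraries and covered the 250 bases before it, while no list had a region across the downstream one. An ESC HEB region with a height of 25.6 did lie near the downstream start, 596 bp past it. The 250 bases before each start (GRCm38.p6, minus strand, chr8:122699110-122699359 for the upstream and chr8:122678176-122678425 for the downstream start) are therefore shown side by side, 5′ to 3′, with every E-box of the form CANNTG in capitals.
Cbfa2t3 upstream start: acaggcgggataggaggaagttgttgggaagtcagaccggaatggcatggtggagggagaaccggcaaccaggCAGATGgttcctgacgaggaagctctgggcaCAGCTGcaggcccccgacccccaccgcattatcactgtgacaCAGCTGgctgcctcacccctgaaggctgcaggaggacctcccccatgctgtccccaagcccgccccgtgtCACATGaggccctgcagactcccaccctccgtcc
Cbfa2t3 downstream start: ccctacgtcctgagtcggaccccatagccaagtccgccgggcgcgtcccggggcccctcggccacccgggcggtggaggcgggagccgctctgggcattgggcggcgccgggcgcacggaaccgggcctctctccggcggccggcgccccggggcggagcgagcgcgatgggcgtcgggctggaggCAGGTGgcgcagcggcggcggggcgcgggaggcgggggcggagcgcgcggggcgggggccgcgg
The upstream window held 4 matches to CANNTG, and 2 of them, 146 and 104 bp before the start, were the CAGCTG form. It also held the SMAD box CAGAC at 2 places, 218 and 20 bp before the start. The downstream window held 1 CANNTG, of the CAGGTG form, 64 bp before its start, and the GC-rich SMAD motif GGCGCC at 147 and 108 bp. The windows differed in composition, with 64.0% GC and 9 CG dinucleotides upstream against 83.2% and 43 downstream, where the median over all windows was 52.4% and 6. Both strands were searched. CAGCTG and CAGGTG are also matches to CANNTG. Of 32851 RefSeq windows of the same length, 66.2% held CANNTG, 13.0% CAGCTG, 17.2% CAGGTG, 42.2% CAGAC and 9.59% GGCGCC. These matches describe the letters only.

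At the region across the upstream start, HEB height was 28.8 in ESC+SB and 47.7 in Endoderm, with no listed region in ESC or Endoderm+SB. The site just inside the gene, 0.52 kb downstream of that start (chr8:125222312-125222751), had HEB heights of 46.1 in ESC, 30.2 in ESC+SB and 86.4 in Endoderm. Its tag counts were 127 (106 to 151), 90 (72 to 111) and 395 (357 to 436), in regions of 275, 338 and 440 bp. Farther into the gene, Endoderm HEB had regions at 27.02 kb (27.4) and 37.85 kb (35.6). ESC HEB had 1 at 21.92 kb (25.6), which is the region 596 bp past the downstream start. The site at 58.94 kb had 27.9 in ESC and 33.8 in ESC+SB. The values farther into the gene were all under the median height of their lists, while the Endoderm region at 0.52 kb was higher than 86.3% of its list.

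**Figure D3:**
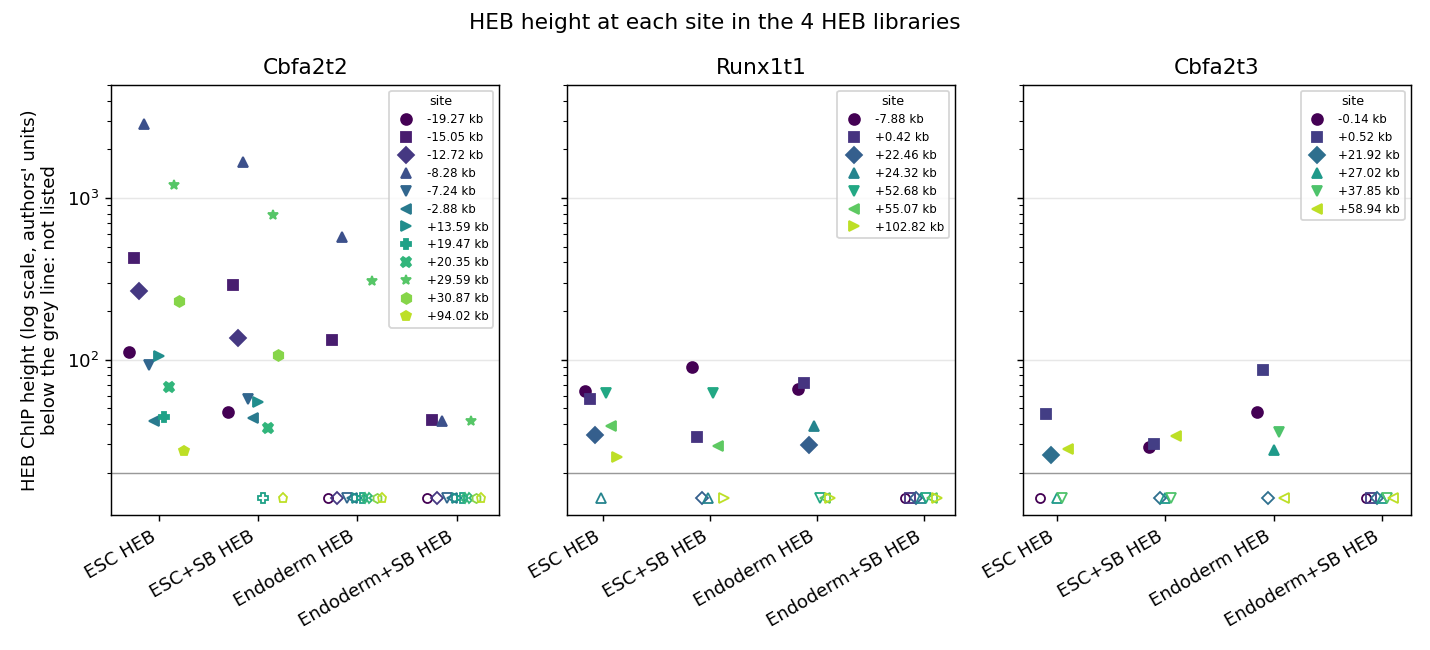
HEB ChIP height of each site in the 4 HEB libraries for the 3 genes, in the authors' units on a log axis, where filled symbols are listed regions and open symbols under the grey line mark sites with no listed region. Cbfa2t2 spans 27.4 to 2861 in ESC HEB and has 3 sites left in Endoderm+SB HEB, where Runx1t1 and Cbfa2t3 have none.

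The comparison of the HEB libraries with and without SB431542 asks how HEB binding stood when nodal and activin signalling was inhibited. In ESC, 16 of the 21 family regions overlapped a region of ESC+SB HEB, beside 74.8% of all ESC HEB regions, a share near that background. Heights differed more than presence did. Over the 12613 regions shared one to one by the 2 lists, the median ratio of ESC+SB to ESC height was 1.07, and 8.12% were lower by 1.5-fold or more. Of the 16 family pairs, 10 were lower by that much, 8 of them at Cbfa2t2.

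At Cbfa2t2 the ratio was between 0.424 and 1.05 with a median of 0.57 over 10 pairs, and all 10 lay below the median of all shared regions. The lowest ratio was at the site 19.27 kb upstream and the only one above 1 at the site 2.88 kb upstream. At the 2 strongest sites it was 0.582 and 0.647. Tall regions had lower ratios in general: over the tallest 5% of shared regions (631, with an ESC height of at least 156) the median was 0.765, and 36.6% were lower by 1.5-fold or more. The 5 Cbfa2t2 sites of that height had ratios of 0.459 to 0.679, all below 0.765, and stood at percentiles 10.6 to 38.8 of the tallest 5%. Tags moved with the heights, with ratios of 0.593 and 0.571 at the 2 strongest sites.

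At Runx1t1 the 4 ratios ran from 0.584 at the 5′ end to 1.39 at the site 7.88 kb upstream, on both sides of the median of all shared regions. At Cbfa2t3 they were 0.655 at 0.55 kb and 1.21 at 58.94 kb. The pairs at Runx1t1 and Cbfa2t3 therefore showed no single direction in these 2 ESC libraries. Of the 5 ESC HEB regions with no ESC+SB partner, 3 had heights under 28.0 (27.4, 25.6 and 25.2), where the ESC+SB HEB list holds no region at all, and the others had 44.4 at Cbfa2t2 and 34.1 at Runx1t1. Median background height was 2.76 in ESC HEB and 3.94 in ESC+SB HEB, and the part of this difference in the ratios was not tested.

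In differentiated cells, 3 of the 12 family regions of Endoderm HEB overlapped an Endoderm+SB HEB region, beside 25.3% of all, again near the background. All 3 were at Cbfa2t2 and all 3 were lower by 1.5-fold or more, beside 28.1% of 4754 shared regions. The ratio was 0.0734 at the strongest site (571 to 41.9, with 3055 and 189 tags), 0.138 at 29.6 kb in the gene and 0.322 at 14.96 kb upstream. At 14.96 kb the summits of the 2 libraries lay 137 bp apart. The median over all shared regions was 0.921. Among the tallest 5% (238 regions of at least 205) it was 0.185, with 92.0% lower by 1.5-fold or more. The strongest site stood at percentile 5.46 of these tall regions and the one in the gene at 34.5, so the second was near what tall regions did in general.

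**Figure D4:**
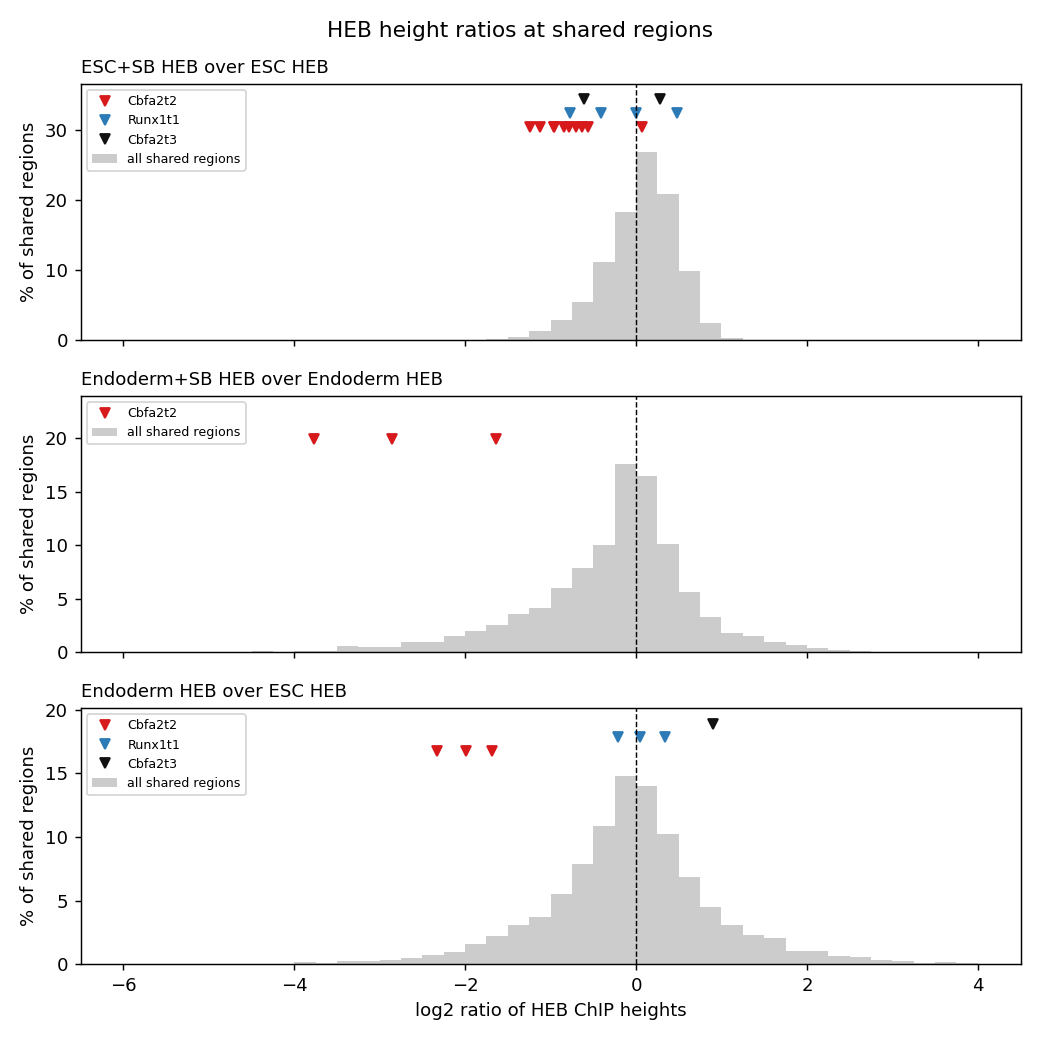
Ratio of HEB heights on a log2 x axis at regions shared by 2 libraries, where grey bars give the percent of all shared regions and triangles mark the pairs at the 3 genes. In ESC+SB over ESC, 9 of 10 Cbfa2t2 pairs lie below 0; in Endoderm+SB over Endoderm and in Endoderm over ESC all 3 Cbfa2t2 pairs do. Runx1t1 pairs lie on both sides of 0 in both panels that hold them.

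Between the cell states, 7 of the 21 ESC HEB regions of the family overlapped an Endoderm HEB region, beside 32.1% of all. This comparison shares the ESC HEB library with the one above. At Cbfa2t2 the Endoderm to ESC ratio was 0.2 at the strongest site, 0.252 at 29.59 kb and 0.31 at 15.05 kb. The summits at 15.05 kb lay 93 bp apart. At Runx1t1 the ratio was 0.867, 1.03 and 1.26, and at the Cbfa2t3 site 0.55 kb from the start it was 1.87. The median over 5413 shared regions was 0.974, and 24.0% were lower by 1.5-fold or more, among them the 3 at Cbfa2t2. Over the tallest 5% the median was 0.321, and the Cbfa2t2 sites stood at their percentiles 32.1 to 47.6, near the middle of the tall regions.

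For SMAD2/3, 3 of 9 ESC regions of the family overlapped an Endoderm region, beside 38.7% of all. All 3 were upstream of Cbfa2t2. The Endoderm to ESC ratio was 0.704 at the far summit of the strongest site, 0.205 at its near point and 1.12 at the site 15.36 kb upstream, where the median over all shared regions was 1.29. The listed SMAD2/3 height thus differed more between the states at the near point than at the far summit. The summits of the 2 libraries lay 280 bp apart at the near point and 544 bp apart at 15.36 kb, against 22 bp at the far summit. The near-point and 15.36 kb ratios therefore do not compare heights read at 1 point. Endoderm height at the near point, 26.5, was also close to the lowest listed height of 25.0. No Endoderm SMAD2/3 region was listed inside Cbfa2t2.

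HEB lay at every family region of SMAD2/3. In ESC all 9 SMAD2/3 regions overlapped an ESC HEB region, beside 83.9% of all, and in Endoderm all 5 overlapped an Endoderm HEB region, beside 60.5%. The reverse did not hold, since 6 of the 12 Cbfa2t2 sites, 4 of the 7 Runx1t1 sites and all 6 Cbfa2t3 sites had no SMAD2/3 region in either state. Summits coincided within 5 bp at 5 of the ESC pairs (19.28, 12.72 and 8.28 kb upstream and 29.59 kb downstream at Cbfa2t2, and 1.01 kb upstream at Runx1t1). The median gap over all ESC pairs was 16.0 bp. At Cbfa2t2 the gap was 31 bp at 30.84 kb downstream and 312 bp at 15.36 kb upstream. It was 1389 bp at 9.67 kb upstream of Cbfa2t2 and 616 bp at 0.4 kb upstream of Runx1t1. At these last places a single broad HEB region met both SMAD2/3 regions of the site.

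HEB height exceeded SMAD2/3 height by 3.01-fold to 22.2-fold at the 6 ESC pairs of Cbfa2t2, where the median over 3391 pairs was 1.67. The highest ratios were at the near summit of the strongest site (22.2), at 29.59 kb (19.1) and at 15.36 kb (16.7). At the Runx1t1 5′ end it was 1.82. In Endoderm the ratio was 21.6 at the near point of the strongest site and 4.62 at 14.82 kb, but 0.809 at the far summit. The median over 6610 pairs was 1.2. The Endoderm summits of the 2 factors lay 288 bp apart at the near point and 139 bp apart at 14.82 kb. Heights of different antibodies are not on 1 scale, so these ratios compare places within a pair of libraries and not the amounts of the 2 factors.

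Genes whose products work with ETO or E proteins were read from the same lists, as 37 genes chosen for their known roles. ESC SMAD2/3 named 4 of the 37 (10.8%), beside 6.58% of 21896 protein-coding genes. ESC HEB named 22 (59.5%) beside 21.7% of all, and ESC+SB HEB 26 (70.3%) beside 26.6%. Endoderm SMAD2/3 named 18 (48.6%) beside 20.7%, Endoderm HEB 20 (54.1%) beside 22.2% and Endoderm+SB HEB 17 (45.9%) beside 20.4%. The share of partners was above that of all protein-coding genes in each list, and in ESC SMAD2/3 it rested on 4 genes. The 37 genes were chosen with earlier results of these data known, so this difference is a description and carries no test. Gene length was not taken into account.

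Id1, an inhibitor that pairs with E proteins and keeps them off DNA, was among the 3 partners of highest tag enrichment in every list, with 12.5 and 18.3 for SMAD2/3 in ESC and Endoderm and 31.9, 50.9, 29.6 and 35.0 for HEB in ESC, ESC+SB, Endoderm and Endoderm+SB. The region of highest enrichment was not the same one in ESC HEB as in the other HEB lists, so the ESC values with and without the inhibitor are of different places. In Endoderm the place was the same, and there height was 148 without and 143 with the inhibitor, with 770 and 560 ChIP tags against 26 and 16 input tags. Prdm14, whose product binds CBFA2T2 in pluripotent cells, was among them in the 3 ESC lists only, at 13.2 for SMAD2/3 and 20.1 and 20.4 for HEB without and with SB431542. Zbtb16, which encodes the DNA-binding repressor PLZF, had 36.8 in Endoderm SMAD2/3 and 62.3 in Endoderm+SB HEB. These 2 values are of different places, chr9:48469820-48470783 and chr9:48482939-48483830. Further partners among the highest were Ldb1 in ESC SMAD2/3 (8.69), Runx1 in Endoderm SMAD2/3 (25.3), Gata1 in Endoderm HEB (43.9) and Tbl1xr1, a subunit of a corepressor complex with histone deacetylase, in Endoderm+SB HEB (18.8).

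By group, 1 of the 4 Id genes (25.0%) was named by ESC SMAD2/3 and by Endoderm SMAD2/3. ESC HEB and Endoderm+SB HEB named 3 (75.0%), and ESC+SB HEB and Endoderm HEB named 4 (100.0%). Of the 10 corepressor complex genes, ESC SMAD2/3 named 1 (Ncor1), ESC HEB 4, ESC+SB HEB 7, Endoderm SMAD2/3 7, Endoderm HEB 5 and Endoderm+SB HEB 5. Of the 11 DNA-binding partners, ESC SMAD2/3 named 1 (9.09%), ESC HEB 7 (63.6%) and ESC+SB HEB 6 (54.5%). Endoderm SMAD2/3 named 2 (18.2%), Endoderm HEB 5 (45.5%) and Endoderm+SB HEB 1, Zbtb16 (9.09%). The shares of all protein-coding genes, in the same order, were 6.58%, 21.7%, 26.6%, 20.7%, 22.2% and 20.4%. The DNA-binding group was thus below all genes in Endoderm SMAD2/3 and Endoderm+SB HEB, and above them in the other lists. The Id and corepressor groups were above all genes in every list. Groups of this size shift much with a single gene, and the remaining partner groups are not described here. Tcf12, the gene of HEB itself, was named by ESC+SB HEB, Endoderm SMAD2/3 and Endoderm+SB HEB.

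Likeness to each member was measured over 10730 genes as the distance between log2(highest tag enrichment + 1) values across the 6 lists, with 0 where a list does not name the gene. For Cbfa2t2 the nearest genes were Ubxn11 (3.19), St5 (3.3), Anxa11 (3.74), Vax2os2 (3.83) and Phlpp1 (3.93). None was close: Ubxn11 had 135 in ESC HEB and 73.9 in ESC+SB HEB but 7.33 in Endoderm HEB, where Cbfa2t2 had 59.8. For Cbfa2t3 they were nearer, with Zc3h12b (0.3), Gpr120 (0.56), Myom2 (0.58), Corin (0.63) and Zeb1 (0.7), and for Runx1t1 they were Mgat5 (0.63), 4932416H05Rik (0.67), Agpat3 (0.71), 0610012H03Rik (0.72) and Zfp827 (0.73). The upstream sites of Cbfa2t2 name no gene and did not enter this measure.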

How the data were processed

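The sources were 6 ChIP-seq region lists, 1 per ChIP library, and the labels of 10 samples, of which 4 were inputs whose reads were not analysed here. The members and gene lists were chosen with earlier results of these data known. CASAVA 1.8.2 and build mm9 come from the submitters' processing notes. No aligner, peak caller or annotation is named in the labels or headers. Per the file headers, each region has whole-number counts of ChIP and background tags, the authors' ratio of these tags, and a deposited signal height with its background height. The authors' tag ratio uses a floor on low background counts, as the values show. The deposited −log10 q-values were not used. Coordinates are those of the lists, with the base they count from unstated.

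From the deposited values, 5′ ends were derived from the listed gene distances, sites were member regions linked by overlaps of at least 1 bp, and shared pairs were one-to-one overlaps with the nearest summits. A fold of 1.5 was used to call a height lower. HEB and SMAD2/3 lists of the same cells appear to share an input. With 1 library per group no test was made. Sequences are RefSeq's for GRCm38.p6, whose table matched 2 of the 3 genes. Named genes were the 3 members, the 3 partners of highest tag enrichment per list, the 5 nearest genes per member and the genes beside the chromosome 2 stretch, of which some are not reported here. Alternatives were the upper 50% of each list, equal list lengths, listed genes only, a wider stretch, other overlap rules, other measures of rank and scaling by the median. Code ran in Python 3.11.15 with numpy 2.4.6, pandas 2.3.3, scipy 1.17.1 and matplotlib 3.10.9, and was tested on simulated data.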

Additional observations from a re-analysis of the deposited data

How the results depend on the processing

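Median height ratios kept their direction when divided by the median of all shared regions. Over all results and alternatives, 39 values moved and 40, these 4 ratios among them, did not. At equal list length by height, family regions numbered 9 in ESC SMAD2/3, 11 in ESC HEB, 7 in ESC+SB HEB, 2 in Endoderm SMAD2/3, 6 in Endoderm HEB and 3 in Endoderm+SB HEB. At equal length by tag enrichment ESC+SB HEB had 9, Endoderm SMAD2/3 3 and Endoderm HEB 6. In the upper 50% by height ESC+SB HEB had 11 and Endoderm SMAD2/3 2. With listed genes only, ESC SMAD2/3 had 4, ESC+SB HEB 11, Endoderm SMAD2/3 2 and Endoderm+SB HEB 1. Shared regions in the upper 50% were 1 for ESC in Endoderm SMAD2/3 and 2 for Endoderm SMAD2/3 in HEB, and 50% reciprocal overlap left 5 of 9 ESC SMAD2/3 regions on HEB. The best family rank by tag enrichment was 53, 2, 2, 419, 66 and 803 in ESC SMAD2/3, ESC HEB, ESC+SB HEB, Endoderm SMAD2/3, Endoderm HEB and Endoderm+SB HEB. By height it was 22, 1, 2, 179, 36 and 3208, by height minus background 22, 1, 2, 180, 36 and 2975, and by raw tag quotient 76, 10, 6, 664, 173 and 86. Partner genes in the upper 50% were 12 (ESC HEB), 14 (ESC+SB HEB), 11 (Endoderm SMAD2/3), 13 (Endoderm HEB) and 8 (Endoderm+SB HEB). With height in place of tag enrichment, 2, 1 and 0 of the 5 nearest genes were shared for Cbfa2t2, Cbfa2t3 and Runx1t1. The cause of these shifts was not tested. No paired analysis was possible because each group has 1 library, and no library could be left out for the same reason.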

Other observations

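Regions naming no gene within 100 kb of the other family members were read after the data had been seen. Cbfa2t3 had an Endoderm HEB region 67.3 kb upstream at chr8:125290022-125290503, with a height of 119 and a tag enrichment of 36.9, taller than any region that names the gene. Endoderm SMAD2/3 had a region at the same place with a height of 35.9, and the other 4 lists had none there. The other unassigned regions upstream of Cbfa2t3 were lower. At 10.3 kb, HEB height was 27.0 in ESC and 42.3 in ESC+SB, at 7.15 kb it was 26.3 in ESC and 28.9 in ESC+SB, and at 29.7 kb it was 31.9 in Endoderm and 25.1 in Endoderm+SB. Endoderm HEB alone had regions at 38.2 kb (28.2) and 40.2 kb (29.9). Runx1t1 had 1 such region, in Endoderm+SB HEB 61.3 kb upstream with a height of 26.4. Distance is the only link between these regions and the members, so none is assigned to a member here.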
